A study of Homo sapiens with 6 samples.

Results

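The keratin genes are the protein-coding members of the keratin family that lie in 2 runs of neighbouring genes on human chromosomes 12 and 17. They were taken from the merged transcript assembly of the study as every model on these chromosomes whose gene name is KRT, a number and at most 1 letter from A to C, and whose nearest RefSeq transcript has a protein-coding accession. The rule gave 64 models of 55 genes, out of 55083 models and 25211 gene names (0.218% of the names). Of the 55 genes, 29 were counted as type I, which are the 28 genes of chromosome 17 and KRT18 of chromosome 12, and 26 as type II, all on chromosome 12.

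The assembly was built from RNA of 6 libraries of EndoC-βH1, an established human pancreatic beta cell line. All 6 came from cells given a short hairpin RNA (shRNA) construct by lentivirus. In 3 libraries an shRNA aimed at the promoter of INS, the insulin gene, was induced with doxycycline at 1 mg/mL for 7 days, and 3 negative control libraries received no doxycycline. Doxycycline and the hairpin therefore changed together, no group with doxycycline alone is listed, and both groups rest on 1 cell line. The assembly holds exon positions and no amount of RNA for any library, so the depth behind a model is unknown, keratin RNA levels and their change with induction were not analysed here, and the beta cell label could not be checked against marker levels. Keratins of hair shafts and of corneal epithelium stood in the file beside those of simple epithelia, and the listing of a keratin model is no measure of its RNA. Of the 64 keratin models, 63 were RefSeq transcripts and 1, of KRT72, was an assembled model. The layouts, spacing and sequences that follow are therefore those of the reference annotation and genome. What follows is a description of gene models by counts, medians and ranges, with no test, since the members of a gene family are not replicates of a condition.

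Keratins are the intermediate filament proteins of epithelial cells. Each filament is built from heterodimers of a type I and a type II chain, which share a long central coiled-coil rod between a variable head and a variable tail. KRT8 and KRT18 form the pair of simple epithelia, including the endocrine and exocrine pancreas, KRT7 and KRT19 are widely used as markers of ducts, and KRT20 is best known from the intestinal epithelium. KRT5 and KRT14 pair in the basal layer of stratified epithelia, KRT1 and KRT10 in the layers above it, and a further large set is made in hair shafts and hair root sheaths.

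The layouts of both types are easiest to see in the exons that code for the rod. The coding exons were named by place: A is the exon before a block of 157 bases, B the block itself, and C, D and E the next exons. In type I genes B was 1 exon of 157 bases, and in type II genes the same block was cut into an exon B1 of 61 bases and an exon B2 of 96 bases. Exon B of KRT18 (chr12:53344534-53344690, plus strand), KRT19 (chr17:39681095-39681251, minus strand) and KRT14 (chr17:39740509-39740665, minus strand) is printed on build GRCh37 (hg19), 5′ to 3′ on the strand of the gene, because these 3 represent a simple epithelial, a ductal and an epidermal type I keratin. Capitals mark the 3 bases on each side of the place where type II genes carry an intron.
KRT18: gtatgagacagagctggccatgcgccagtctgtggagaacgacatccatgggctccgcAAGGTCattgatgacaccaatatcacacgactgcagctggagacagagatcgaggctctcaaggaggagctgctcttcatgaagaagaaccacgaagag
KRT19: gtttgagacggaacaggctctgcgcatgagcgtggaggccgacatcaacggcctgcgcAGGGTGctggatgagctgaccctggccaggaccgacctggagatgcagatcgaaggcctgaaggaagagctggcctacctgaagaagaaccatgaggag
KRT14: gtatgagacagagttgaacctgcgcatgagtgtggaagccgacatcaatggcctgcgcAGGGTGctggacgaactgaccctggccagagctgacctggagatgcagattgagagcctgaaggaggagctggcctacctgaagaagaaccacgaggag

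The matching exons B1 and B2 of common type II partners show the block in 2 pieces. They come from KRT8 (chr12:53294943-53295003 and chr12:53294372-53294467, minus strand), KRT7 (chr12:52631293-52631353 and chr12:52632464-52632559, plus strand) and KRT5 (chr12:52911887-52911947 and chr12:52911681-52911776, minus strand) on GRCh37, and the capitals are the last 3 bases of B1 and the first 3 of B2.
KRT8 exon B1: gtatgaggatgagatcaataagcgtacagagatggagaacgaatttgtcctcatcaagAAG
KRT8 exon B2: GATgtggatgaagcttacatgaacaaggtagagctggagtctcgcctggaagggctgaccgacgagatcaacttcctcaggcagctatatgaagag
KRT7 exon B1: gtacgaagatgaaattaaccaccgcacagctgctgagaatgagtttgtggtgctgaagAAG
KRT7 exon B2: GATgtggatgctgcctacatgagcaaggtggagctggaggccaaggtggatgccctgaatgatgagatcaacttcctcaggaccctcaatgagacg
KRT5 exon B1: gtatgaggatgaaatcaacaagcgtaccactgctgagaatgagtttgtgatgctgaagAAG
KRT5 exon B2: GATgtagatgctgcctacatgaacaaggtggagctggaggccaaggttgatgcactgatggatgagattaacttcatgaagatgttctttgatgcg
All 3 type II genes end B1 with the same 3 bases and begin B2 with the same 3 bases. In KRT18 the 3 bases before the place of the missing intron are those that end B1 in the type II genes, whereas KRT19 and KRT14 carry other bases there.

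The internal exons had nearly fixed lengths within a type. A run of exons of 83, 157, 162 and 126 bases (A to D, 528 bases in all) was present in 26 of the 29 type I genes and in no type II gene. Across the assembly it occurred in 0.131% of the 19861 gene names that have a RefSeq model of 3 or more exons, and these were the same 26 keratins. A run of 61, 96, 165, 126 and 221 bases (B1 to E, 669 bases in all) was present in 25 of the 26 type II genes, in no type I gene and in no other gene name, which makes 0.126% of the names. The layouts were used to name the exons, so these counts describe the family and test nothing.

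Single lengths and some pairs of them were found in other genes too. An exon of 126 bases occurred in 1424 gene names (7.17%) and one of 221 bases in 313 (1.58%). The pair of 126 followed by 221 bases occurred in 51 names, of which 18 were type I and 25 type II keratins. The other 8 were VIM, DES, GFAP and PRPH, the vimentin-like filament genes, LMNA, LMNB1 and LMNB2, the nuclear lamin genes, and KRT16P1, a name with a pseudogene suffix. The pair of 83 and 157 bases occurred in 35 names, 28 type I keratins and 7 others, among them BFSP2 and KRT16P1 but also DHX9, GDPD4 and PDE9A, which encode no filament protein. The pair of 61 and 96 bases occurred in 45 names, the 26 type II keratins and 19 others, of which 5 were on the list of other filament genes.

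VIM, DES and GFAP shared the run 61, 96, 162, 126 and 221 bases, which is the type II layout with the 162-base exon C of type I. PRPH had 168 bases in that place. BFSP2, a filament gene of the eye lens, had the 83 and 157 pair of type I and then 162, 132 and 221 bases, while its partner BFSP1 had the 61 and 96 pair. The lamin genes had 157, 126, 171, 126 and 221 bases. The neurofilament genes NEFL, NEFM and NEFH, and INA, NES and SYNM, had 3 or 4 exons and neither pair.

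**Figure D1:**
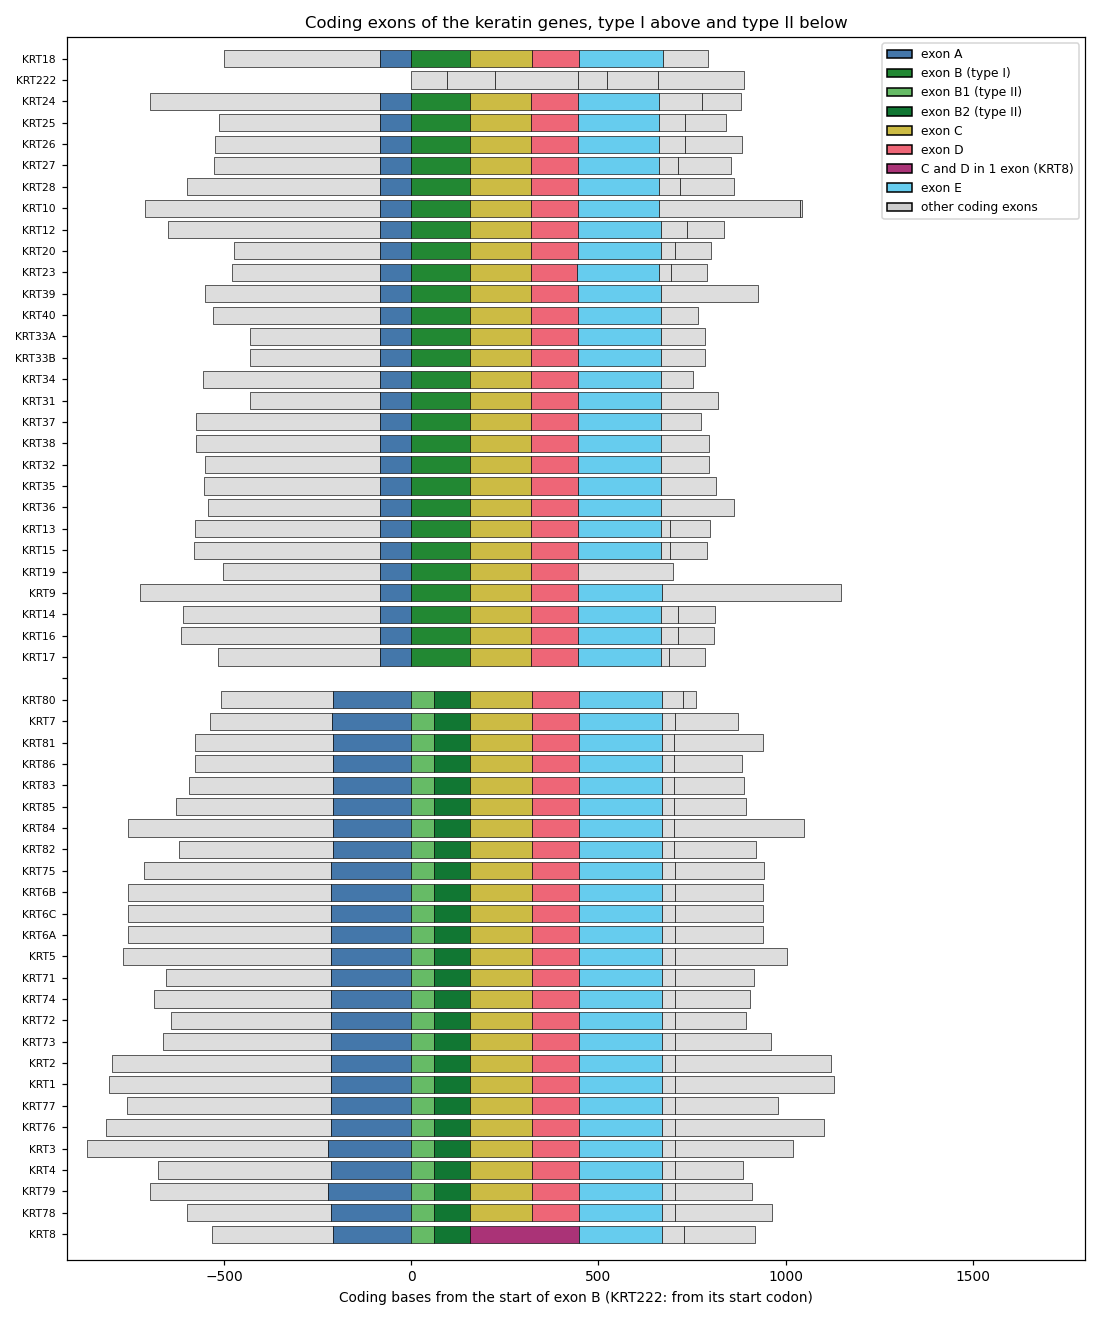
Coding exons of the representative transcript of each of the 55 keratin genes, drawn to scale in coding bases (x axis) from the start of exon B and coloured by place, with type I genes in the upper block and type II genes in the lower. The green block is undivided in type I and split in type II, KRT8 has 1 long exon where the others have C and D, KRT19 has no separate exon E, and KRT222, which has no exon B, is drawn in grey from its start codon.

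KRT222, KRT18 and KRT23 were the 3 type I genes outside the type I run. KRT18 differed by a whole codon in each of 2 exons, with 165 bases in C against the usual 162 and 224 in E against the usual 221. The 165 bases of its exon C are the length found in the type II genes of its chromosome. KRT23 had 123 bases in D against the usual 126. KRT222 (chr17:38811872-38821416, minus strand) had 6 exons of 161, 129, 221, 77, 136 and 1011 bases, no 83 and 157 pair and a longest reading frame of 295 codons, the shortest of the family. Its exons of 129 and 221 bases followed each other as D and E do in the other genes, the first a codon longer than the usual 126 and the second with the usual length of E. The junctions before and after the exon of 129 bases fell between codons and that after the exon of 221 bases after the second base of a codon, as at D and E. KRT222 has no 157-base block from which to count places, so its exons were given no letters and are left out of the counts by place.

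Of exons A to E, exon E had the most lengths among the type I genes with the block, and they differed by whole codons. It measured 221 bases in 19 genes, 218 in KRT24, KRT10 and the 4 inner root sheath genes KRT25, KRT26, KRT27 and KRT28, and 224 in KRT18 and KRT9. These 6 genes with 218 bases stood next to each other, without another keratin among them, in the order KRT24, KRT25, KRT26, KRT27, KRT28, KRT10. KRT9, the keratin of palm and sole epidermis, lay far from them, between KRT19 and KRT14.

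In type II genes the variable place was exon A, before the block. It measured 215 bases in 15 genes, 209 in KRT80, KRT8 and the 6 hair keratins KRT81 to KRT86, 212 in KRT7, and 221 in KRT3, a corneal keratin, and KRT79. The penultimate exon of the type II genes followed the classes more closely. It had 32 bases in all 6 hair keratins, 35 bases in 18 genes, 56 in KRT80 and 59 in KRT8. Counting A, C, D and E in both types, 21 exons differed from the commonest length of their place, and all 21 differed by a multiple of 3 bases.

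KRT8 was the type II gene without the run. In place of exons C (165 bases) and D (126 bases) it had 1 exon of 291 bases, which is their sum.

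Among the 28 type I genes with the block, KRT19 was the one without a separate exon E. It had 6 exons, and its last exon of 381 bases held 255 coding bases where the other genes have exon E and a tail. These coding bases (chr17:39679995-39680249, minus strand) are printed with the stop codon in capitals.
KRT19: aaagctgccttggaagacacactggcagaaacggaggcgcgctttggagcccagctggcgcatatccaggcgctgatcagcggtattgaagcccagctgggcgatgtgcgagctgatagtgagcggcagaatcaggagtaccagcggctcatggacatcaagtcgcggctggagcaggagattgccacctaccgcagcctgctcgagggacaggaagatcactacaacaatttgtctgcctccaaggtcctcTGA
The first 221 of these bases were 58.8% (KRT23) to 74.7% (KRT13) identical to exon E of the 19 type I genes with a 221-base exon E, with a median of 65.6%. That left 34 bases, or 10 residues and the stop, as tail. Among the other 27 type I genes with an exon E the tail had 28 (KRT34) to 158 residues (KRT9), with a median of 46.

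The end of the frame separated the type I classes. Of the type I genes, 16 had 1 further exon between E and the last exon, and 12 had none. The 12 were KRT18, KRT19 and 10 of the 11 hair keratins, KRT31, KRT32, KRT33A, KRT33B, KRT34, KRT36, KRT37, KRT38, KRT39 and KRT40. KRT35 was the hair keratin with such an exon (154 bases), and in it the frame ended within that exon, 6 bases before the last junction. The chain of introns of this KRT35 transcript was absent from GENCODE. In KRT9 too the frame ended within the further exon, 40 bases before the last junction.

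Where the further exon was present its length ranged widely. It had 23 bases in KRT17, 26 in KRT13 and KRT15, 32 in KRT23, 38 in KRT20, and 47 in KRT14 and KRT16. It had 50 bases in KRT27, 56 in KRT28, 68 in KRT25 and KRT26, 71 in KRT12, the corneal partner of KRT3, and 113 in KRT24. The longest were 375 bases in KRT10 and 518 in KRT9, both keratins of cornified epidermis with long tails. In type II genes every member had such an exon, the tail had a median of 89 residues, and the range ran from 29 in KRT80 to 152 in KRT1.

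The reading frame crossed the junctions in the same way in all members that have them. The junctions before A, between B and C, between C and D and between D and E fell between codons in 28 of 28 type I genes with the block and in all type II genes that have the junction. The junction between A and B fell after the second base of a codon in 28 of 28 and 26 of 26 genes, and so did that after E in 27 of 27 and 26 of 26. The extra type II junction between B1 and B2 also fell between codons, in 26 of 26 genes. The block therefore had the same number of coding bases and the same frame at both of its ends in type I and type II.

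The longest frames had a median of 455 codons in type I genes, from 295 in KRT222 to 623 in KRT9, and of 532 in type II genes, from 422 in KRT80 to 644 in KRT1. The ranges overlapped widely. The frame of KRT18 had 430 codons, that of KRT8 483, that of KRT7 469, that of KRT19 400 and that of KRT20 424. Each of these 5 keratins of simple epithelia lay below the median of its type.

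Type II genes were also longer and more uniform in exon number. All 26 had 9 exons in the representative transcript, defined as the reference transcript with the most spliced bases. Of the type I genes, 15 had 8 exons, 10 had 7, KRT222 and KRT19 had 6, and KRT23 and KRT40 had 9. In KRT8 and KRT23 the frame began in the second exon and in KRT40 in the third, so each carried leading sequence in exons without coding bases. The 9 exons of KRT8 include such an exon. Other reference transcripts had 8 exons in KRT8 and 8 or 10 in KRT72, so the uniform number holds for the representatives.

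Gene spans were short beside the rest of the genome. The median span was 5274 bases in type I and 7914 in type II genes, against 25353.5 bases over 17908 protein-coding gene names with at least 2 exons, whose median exon number was 8. The shortest was KRT16 (chr17:39766031-39769079), 3049 bases long with 43.7% of them intron. KRT23 (chr17:39078948-39093895) was the longest type I gene with 14948 bases. Among type II genes KRT6C (chr12:52862300-52867569) was the shortest with 5270 bases and KRT8 (chr12:53290971-53343650) the longest with 52680.

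Keratin genes held less intron. Introns made up a median of 67.3% of the type I and 73.0% of the type II gene, against 88.8% over all those protein-coding genes. Spliced lengths ran from 1286 bases in KRT33A to 2837 in KRT38 in type I (median 1715) and from 1702 in KRT7 to 3894 in KRT80 in type II (median 2283), against 2835 over all. KRT80 had a last exon of 2562 bases, the longest of the family, and KRT38 had both the longest first exon (915 bases) and, among type I genes, the longest last exon (1173 bases).

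Introns differed by place. That between C and D had a median of 91 bases in type I genes, from 72 in KRT27 to 792 in KRT9, and of 357 bases in type II genes, from 97 in KRT76 to 2976 in KRT82. It was 91 bases in each of the 4 related hair keratins KRT31, KRT33A, KRT33B and KRT34. The medians in type I and type II were 810 and 1165 bases before A, 512.5 and 814 between A and B, 558 and 528.5 between B and C, 282 and 616.5 between D and E, and 551 and 507 after E. The intron before A was the longest of the gene in 16 of the 28 type I genes with the block and in 10 of 26 type II genes. The intron that only type II genes have, between B1 and B2, ran from 110 bases in KRT5 to 1277 in KRT4 with a median of 471.5, and it was the longest of the gene in no case.

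**Figure D2:**
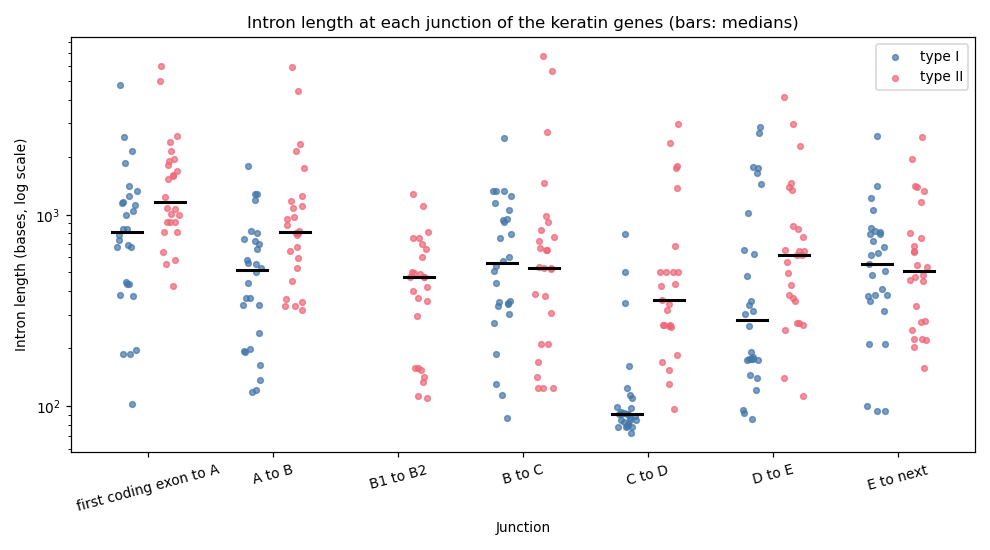
Intron length in bases (y axis, log scale) at each junction of the keratin genes (x axis). Points are genes, blue for type I and red for type II, and black bars are medians; the type I introns between C and D cluster around their median of 91 bases, below the type II median of 357.

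The 5 keratins of simple epithelia differed in size. KRT18 (chr12:53342655-53346685, plus strand) had 7 exons and 1467 bases in the transcript with the most spliced bases. KRT7 (chr12:52626954-52642709, plus strand) spanned 15756 bases and had introns of at least 379 bases throughout, so that 89.2% of the gene was intron. KRT19 (chr17:39679869-39684641, minus strand) spanned 4773 bases, with a first intron of 2554 bases. KRT20 (chr17:39032141-39041495, minus strand) spanned 9355 bases with 8 exons, and its shortest intron, 161 bases between C and D, was longer than that of any other type I epithelial keratin. KRT8 and KRT18, partners in the filament, therefore stood at opposite ends of the span range of chromosome 12.

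Almost all introns had the usual ends. Of 406 introns of reference models, 401 began with GT and ended with AG on the GRCh37 sequence, and 5 began with GC and ended with AG. The share over the introns of other genes was not worked out. The 5 were the third intron of KRT81 and of KRT86, the fifth of KRT2, the intron of KRT18 between B and C and the last intron of KRT40. KRT81 and KRT86 carry it at the same place, between B1 and B2, in introns of 758 and 760 bases.

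The keratins lay in 1 cluster on each chromosome when a gap of over 0.5 Mb was taken to end a cluster. The type II cluster covered 783906 bases of chromosome 12 (52562780 to 53346685), held 27 genes from KRT80 to KRT18 and had only C12orf80 and LINC00592 as other gene names. The type I cluster covered 969011 bases of chromosome 17 (38811872 to 39780882) and held 28 genes from KRT222 to KRT17. Keratin genes took up 37.5% of the first stretch and 17.9% of the second, which includes the large gap described next.

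The type I cluster was parted by a large gap. Between KRT40 and KRT33A lay 358957 bases, the largest distance between neighbours, and in it stood 33 keratin-associated protein genes (KRTAP), which encode the matrix proteins around the filaments of the hair shaft. All but 1 of these had a single exon, 23 lay on the minus and 10 on the plus strand, and they filled the positions from 39149682 to 39471947. The keratins on both sides of the gap, KRT39 and KRT40 on one and KRT33A, KRT33B, KRT34 and KRT31 on the other, were hair keratins. With a limit of 0.1 Mb the cluster became a group of 12 genes over 331516 bases and one of 16 over 278538 bases, of which keratin genes took up 28.58% and 28.15%, while the type II cluster stayed whole.

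Order followed class. From KRT222 on, the type I cluster ran through KRT24 (epithelial), KRT25 to KRT28 (inner root sheath), KRT10, KRT12, KRT20 and KRT23 (epithelial), the 11 hair keratins from KRT39 to KRT36, and KRT13, KRT15, KRT19, KRT9, KRT14, KRT16 and KRT17 (epithelial). The type II cluster ran through KRT80 and KRT7 (epithelial), KRT81, KRT86, KRT83, KRT85, KRT84 and KRT82 (hair), KRT75 (root sheath), KRT6B, KRT6C, KRT6A and KRT5 (epithelial), KRT71, KRT74, KRT72 and KRT73 (root sheath), and KRT2, KRT1, KRT77, KRT76, KRT3, KRT4, KRT79, KRT78 and KRT8 (epithelial). Neighbours were of the same class in 22 of 27 pairs on chromosome 17 and in 20 of 26 pairs on chromosome 12. The share that another order of the same genes would give was not worked out. KRT75 was the single root sheath gene set apart from the others of its class, with KRT6B, KRT6C, KRT6A and KRT5 in between.

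Strand was nearly uniform. All 28 genes of chromosome 17 and 24 of 27 on chromosome 12 were on the minus strand. The 3 on the plus strand were KRT7, KRT86 and KRT18. Neighbouring keratins were on the same strand in 27 of 27 and 21 of 26 pairs. Over all protein-coding gene names of the main chromosomes it was 9570 of 19129 neighbouring pairs (50%). KRT86 (chr12:52695649-52702947) lay between KRT81 and KRT83, its closest relatives in sequence, and faced the opposite way from both.

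**Figure D3:**
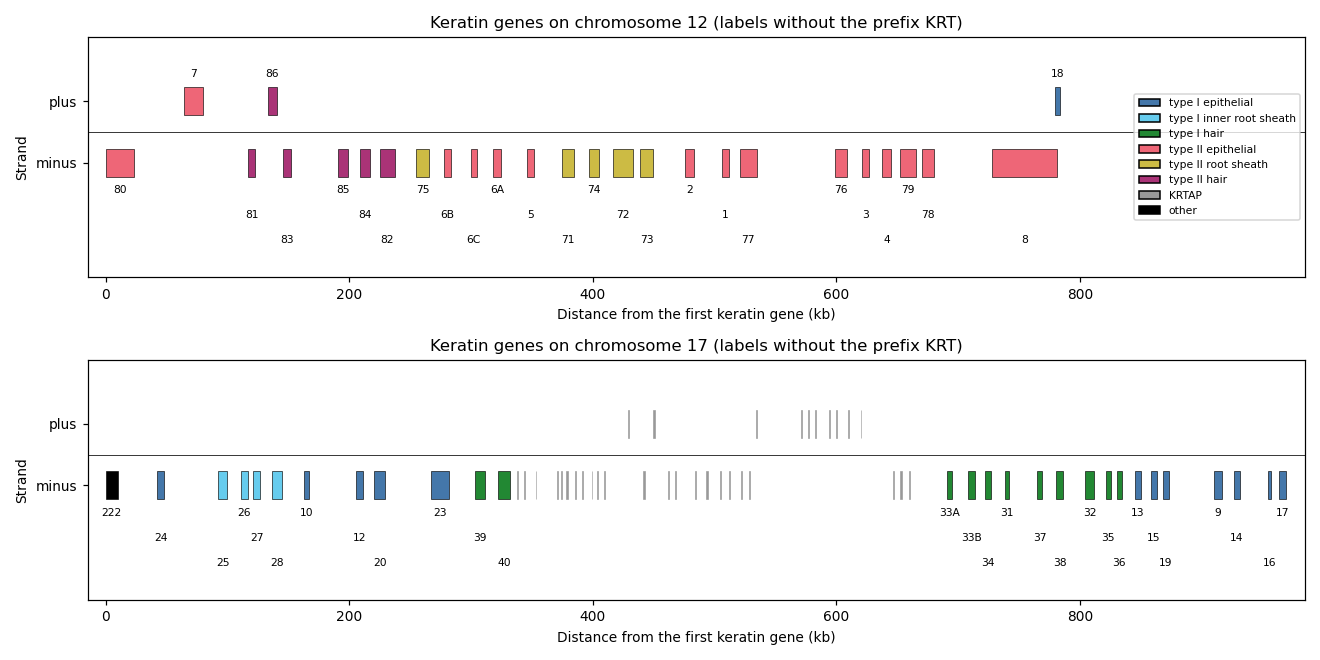
Positions of the keratin genes on chromosomes 12 (upper panel) and 17 (lower panel), in kb from the first keratin gene of the chromosome (x axis), above the line for the plus and below it for the minus strand, coloured by class, with KRTAP genes in grey. KRT7, KRT86 and KRT18 are the 3 keratins above the line, and the 33 KRTAP genes fill the gap of the chromosome 17 cluster.

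The median gap between neighbouring keratins was 12505 bases on chromosome 12 and 11340 on chromosome 17. Between neighbouring protein-coding gene names of the main chromosomes it was 16723 bases. The smallest gaps were 4598 bases between KRT15 and KRT19, 4648 between KRT26 and KRT27, and 4668 between KRT79 and KRT78. On chromosome 12 the largest gap, 64691 bases, lay between KRT77 and KRT76 with no gene name in it. In 25 of 26 and 23 of 27 gaps no other gene name stood. TMEM99, listed between KRT10 and KRT12, began on the plus strand inside the span of KRT10, and MIR6510, a microRNA gene, lay within KRT15 and shared its locus number, so a value summed over that locus would hold both.

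KRT8 and KRT18 were the only neighbours whose spans overlapped, and their arrangement depended on the start of KRT8. For KRT8, 3 reference starts were listed, at 53298868, 53320253 and 53343650 on the minus strand, and 2 for KRT18, at 53342655 and 53342843 on the plus strand. The KRT8 starts are called proximal, middle and distal by their distance from the other exons of KRT8. From the proximal start to the KRT18 starts the distance was 43786 and 43974 bases, and from the middle one 22401 and 22589 bases. The distal KRT8 start lay inside KRT18, with 996 bases of shared span against the longer KRT18 span and 808 against the shorter.

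The distal first exon (chr12:53343499-53343650, 152 bases) fell in the first intron of the KRT18 transcript with 7 exons and in the second intron of that with 8, so that the exons of these coding transcripts shared 0 bases. A further KRT8 transcript with a non-coding accession, outside the rule, had a first exon of 411 bases at the same start, which covered 135 bases of a KRT18 exon on the other strand. Whether reads were counted by strand is not given in the sources used here, and without strand, reads from these 135 bases could not be assigned to either gene. The first intron of KRT8 measured 44687 bases from the distal start and 21384 from the middle one, against 2585 from the proximal one. The large span of KRT8 therefore belonged to its distant first exons.

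**Figure D4:**
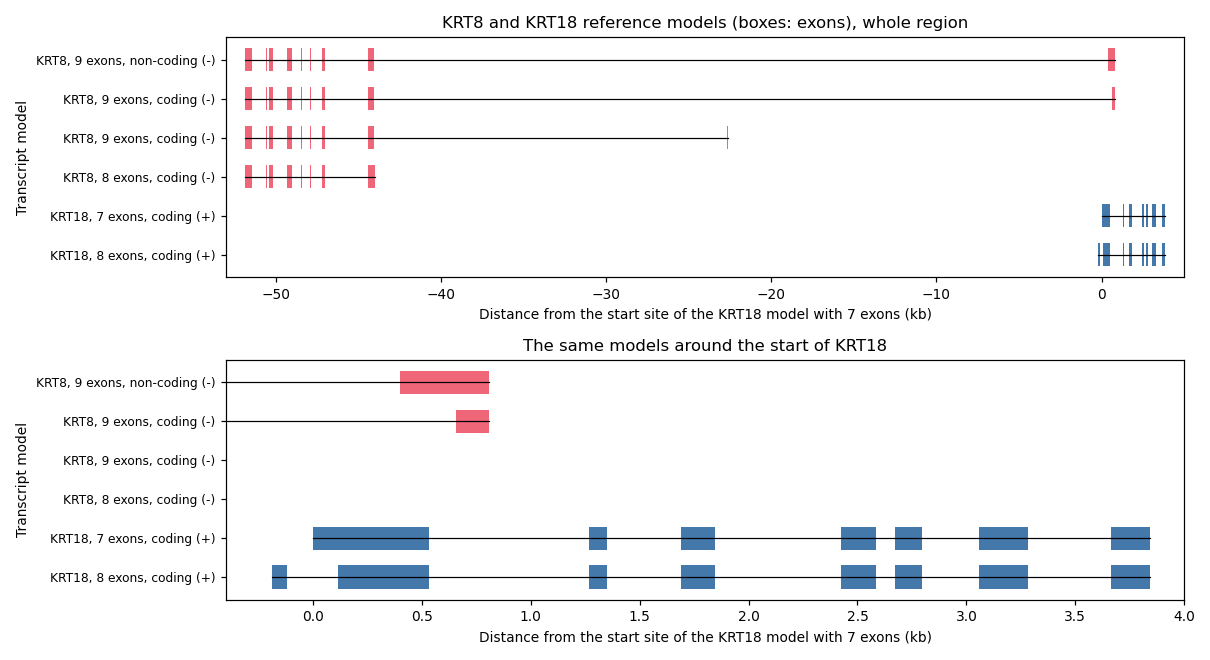
Reference transcripts of KRT8 (red, minus strand) and KRT18 (blue, plus strand), with exons as boxes, by distance in kb from the start of the KRT18 transcript with 7 exons (x axis); the upper panel shows the whole region and the lower the start of KRT18. The distal first exon of KRT8 lies in a KRT18 intron in the coding transcript, and the longer first exon of the non-coding one reaches into a KRT18 exon.

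The choice of start also touched the KRT8 protein. From the proximal and the distal start the longest frame had 483 codons. From the middle start it had 511, because the frame took in 38 of the 58 bases of that first exon and more of the second exon. All 370 bases of the second exon were coding from the middle start, against 324 from the distal one. Both KRT18 transcripts had the same frame of 430 codons and differed in the first exons, 532 bases in one against 68 and 418 bases in the other.

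Few keratins had more than 1 reference transcript, 6 of 55 (10.9%) against 43.8% of the 21516 multi-exon gene names. Besides KRT8 and KRT18 they were KRT72, KRT80, KRT23 and KRT13. KRT13, a mucosal keratin, had a transcript without its 26-base exon, with a frame of 420 in place of 458 codons. KRT23 had one with a first exon of 516 bases and a frame of 285 in place of 422 codons. KRT80 had one with a last exon of 2527 in place of 2562 bases and a frame of 452 in place of 422 codons.

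A joined model, meaning a model that shares junctions with a reference transcript without having its whole chain of introns, was present for 1 of the 55 keratins (1.82%), against 12.4% of all multi-exon gene names. Among names with at least 2 reference transcripts it was 1 of 6 keratins (16.7%), against 27.5% of all such names. It belonged to KRT72, a keratin of the inner root sheath (chr12:52979373-52995322, minus strand). KRT72 had 3 reference transcripts, which differed in the presence of exon D (126 bases) and in the last exon, either 1 of 584 bases or 2 of 210 and 247 bases. The joined model lacked exon D and had the divided end, a combination that none of the 3 has. It had 9 exons, 1762 bases and a frame of 469 codons, the same length as in the reference transcript without exon D, and its chain was absent from GENCODE. Which libraries gave rise to it is not recorded in the assembly.

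Base identity over the 157-base block, read in all 54 genes that have it, separated the types. The median identity was 71.3% within type I (378 pairs, 49.0% to 96.2%), 68.8% within type II (325 pairs, 49.0% to 99.4%) and 47.8% between types (728 pairs, 37.6% to 60.5%). The pair closest across the types was KRT35 and KRT81, both hair keratins. Every one of the 54 genes had its best match in its own type. KRT18, on the chromosome of the type II genes, was most like KRT17 (72.6%) and had a median of 65.0% with the other type I genes and of 51.3% with the type II genes.

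**Figure D5:**
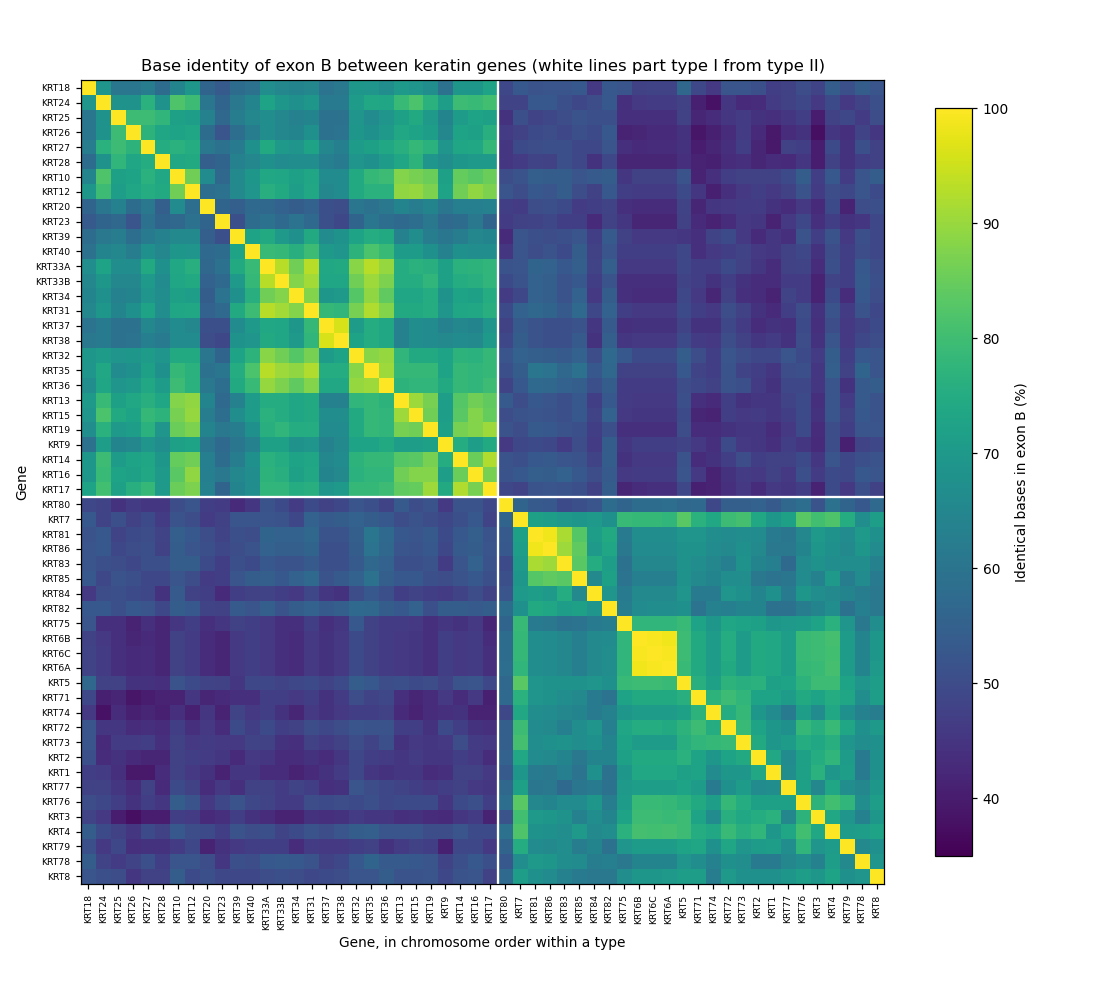
Identical bases (%, colour) over the 157-base block for each pair of the 54 keratin genes that have it, with type I genes first and type II genes after the white lines, in chromosome order within a type. Both squares on the diagonal are lighter than the off-diagonal ones, KRT18 in the first row lies with type I, and KRT6A, KRT6B and KRT6C are among the brightest squares off the diagonal line.

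Of the 157 positions, 10 held the same base in all 54 genes, 29 in all type I and 37 in all type II genes. Among the 10, 8 were second codon positions and 2 were first positions. KRT20 and KRT23 were far from the rest of type I, with best matches of 66.2% (KRT10) and 61.2% (KRT19), and KRT80 far from the rest of type II, with 59.2% (KRT4). KRT20 had the complete type I run all the same, and KRT23 and KRT80 differed from the commonest lengths by whole codons.

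Over the whole run of exons the median identity was 64.8% within type I (26 genes, 528 bases) and 72.9% within type II (26 genes, 669 bases, with KRT8 read through its exon of 291 bases). The best match of a gene belonged to the same class in 25 of 26 genes of each type. The exceptions were KRT24, closest to KRT26 (70.3%), and KRT75, closest to KRT6C (84.9%). The exceptions depended on the stretch compared. Over the block alone KRT24 was closest to KRT10 of its own class (82.2%). KRT75 and KRT73 were there closest to KRT7 of another class (79.0% and 80.9%). Over the run the best match was the direct neighbour in 12 of 26 genes of each type. Exon D had the lowest median of exons A to E in both types, 57.9% and 68.3%. In type II it was close to B (68.8%) and to A (69.3%, in the 15 genes with 215 bases). Between types only B, D and E were compared, and D was again lowest with 42.9%.

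Identity over 95% in the run was found in 4 type I and 6 type II genes, namely KRT37 with KRT38 (96.8%), KRT33A with KRT33B (95.8%), KRT81 with KRT86 (97.2%) and KRT83 (95.2%), and KRT6A, KRT6B and KRT6C (KRT6B with KRT6C 98.4%). Short reads from these genes could fit more than 1 of them, and whether counts of any single one are affected was not tested. In KRT6A, KRT6B and KRT6C, keratins induced in wounded epidermis, exon B1 was the same in all 61 bases, and exon D differed at 2 of 126 positions. Exon D is printed for KRT6A (chr12:52883727-52883852), KRT6B (chr12:52842626-52842751) and KRT6C (chr12:52864289-52864414), all on the minus strand, with the positions that differ in capitals.
KRT6A: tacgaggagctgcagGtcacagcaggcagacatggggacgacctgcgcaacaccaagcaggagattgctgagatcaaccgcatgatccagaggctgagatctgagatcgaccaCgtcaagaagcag
KRT6B: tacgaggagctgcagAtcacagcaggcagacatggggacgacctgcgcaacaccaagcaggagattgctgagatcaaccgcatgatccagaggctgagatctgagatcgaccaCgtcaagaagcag
KRT6C: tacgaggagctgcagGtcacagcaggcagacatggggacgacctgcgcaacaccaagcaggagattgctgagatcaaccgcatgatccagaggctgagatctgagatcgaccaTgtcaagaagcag
KRT6A differed from each of the others at 1 of these positions and KRT6B from KRT6C at both.

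Identity was uneven along some close genes. KRT81 and KRT86 were identical in all 209 bases of exon A and all 61 of B1, whereas KRT81 and KRT83 differed at 11 of the 61 bases of B1 (82.0% identical) but at only 2 of the 96 bases of B2. KRT14 and KRT17 were 90.4% to 93.7% identical in each exon from A to E. KRT14 and KRT16 were 73.5% identical in A, 80.2% in D and 93.7% in E. Over the run of exons from A to D, KRT14 was 81.8% identical to KRT16 and 92.6% to KRT17. Over the whole protein the order of these pairs turned, with 86.4% for KRT14 and KRT16 and 80.1% for KRT14 and KRT17.

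Protein identity, from global alignments of the longest frames, had medians of 47.6% within type I (406 pairs), 57.5% within type II (325 pairs) and 28.7% between types (754 pairs). The highest value was 98.8% for KRT6B and KRT6C. KRT18 had a median of 43.2% with the other type I proteins and 29.6% with the type II proteins, among which its partner KRT8 was the closest (33.3%). KRT8 was most like KRT5 (67.2%). KRT1 and KRT10, partners in the epidermis, were the closest pair across the types over the whole protein with 44.4%. Over the 157-base block they were not close, with 47.8% of bases identical, which is the median between types.

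The promoters were compared by 1 motif. TATAAA, the core of the TATA box, was searched on the sense strand 20 to 40 bases upstream of the start of the representative transcript, and TTTATA, the same motif on the other strand, in the same window. TATAAA was found at 9 of 55 keratins (16.4%), against 357 of 19132 protein-coding gene names (1.87%), and TTTATA at 0 keratins against 0.544%. Of the 9 with TATAAA, 6 were among the 29 type I genes (20.7%) and 3 among the 26 type II genes (11.5%). None of the 11 type I and 6 type II hair keratins was among them, and no start of KRT8 or KRT18 had the motif in the window. The window depends on the annotated start. The model of the hair keratin KRT36 began at its start codon, so its window was counted from the first coding base. The longest frame of KRT28, which had the motif, also began at the first base of its model. The ends of that frame were not listed in GENCODE. A match is a match of letters, and use of these sites in the 6 libraries was not analysed here.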

How the data were processed

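The file analysed was 1 merged transcript assembly of all 6 libraries. Per the deposited file, the program of origin is Cufflinks, and the tags have the form that Cuffmerge writes. The submitters' processing notes list hg19, TopHat2 and Cufflinks; versions, settings and the annotation release were not given in the sources used here. Deposited values are exon positions in bases, counted from 1; all 555595 lines are exons and 0 have a number in the score column, so there is no depth, replicate spread or test. The cultures behind the replicates and the group labels from the sample titles therefore enter no comparison.

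Models were rebuilt in Python 3.11.15. The representative of a gene was its reference transcript with the most spliced bases. An exon run was kept as the layout of a type when at least 20 members shared it. Sequences were read from GRCh37, on which 401 of 406 keratin introns were GT-AG and 5 GC-AG. Frames are the longest from ATG to a stop; 62 of 64 models had frame ends listed in GENCODE release 44 (the exceptions were KRT28 and KRT34), and 62 of the 63 reference chains were listed there (the exception was KRT35). Proteins were aligned with Biopython 1.88 (BLOSUM62, gap opening 11, extension 1, end gaps 0.5), and identity was taken over aligned residues. The scripts were tested on simulated models and sequences. The members and gene lists were chosen with earlier results of these data known. Every member is named, with full values for keratins of simple epithelia, unusual layouts, extreme spans and gaps, the minority strand and more than 1 transcript. Alternatives concerned membership, representative, place of KRT18, exon tolerance, spacing, cluster limit and identity. Some sequences and the comparisons that need them are not reported here.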

Additional observations from a re-analysis of the deposited data

How the results depend on the processing

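No paired analysis was possible because the assembly pools all libraries and holds no value for any of them, and for the same reason no replicate could be left out. Of 33 alternative values, 14 were equal to the main value, 3 were counts of genes or models that changed by less than 1.5 times, and 16 moved. The share of type I genes with the run, 89.7%, became 84.4% over all reference transcripts, 92.9% with KRT18 counted with type II, 96.6% with lengths allowed to differ by 6 bases and 92.9% without KRT222. That of type II, 96.2%, became 87.1% over all reference transcripts and 92.6% with KRT18 added. The median spacing on chromosome 12, 12505 bases, became 21945.5 from start to start and 12331.5 between genes of any name, and that on chromosome 17, 11340 bases, became 17401 and 8846. A cluster limit of 0.1 Mb gave 2 clusters on chromosome 17 in place of 1. Median protein identity became 46.6% within type I, 56.2% within type II and 27.9% between types when taken over the shorter protein, and 49.0% within type I and 28.8% between types without KRT222. These shifts follow from how each alternative is built, in that it adds or drops genes, transcripts or bases. The alternatives without KRT222 were chosen after seeing the data. The gene count was 55, and 61 with pseudogene names added, and the model count was 64, with alternatives from 64 to 71. The positions depend on the RefSeq release the authors used, whose version is not given in the sources used here.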

Other observations

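The assembly also held KRT names with a pseudogene suffix, which the rule left out. KRT16P1, KRT16P2 and KRT16P3, on chromosome 17 outside the keratin cluster, kept the type I exons of 83 and 157 bases, followed by 161 bases in place of 162. Over the 240 bases of the first pair they were 95%, 96.7% and 95% identical to KRT16, against 79.6% to 80.8% to KRT14 and KRT17. Counts of KRT16 are uncertain in these exons for that reason. KRT42P (chr17:39782579-39796451, minus strand) lay directly beyond KRT17 and had 11 exons, and KRT18P55 had 3. KRT19P2 on chromosome 12 and KRT8P41 on chromosome 11 had a single exon each.

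Exons of the keratin genes held more G and C than their introns in 55 of 55 genes. The same comparison was not made over other genes, so the count is not a trait of keratins. The median was 54.96% in exons and 43.8% in introns of type I genes, and 57.5% and 50.2% in type II genes. KRT222 had the lowest exon value (37.8%) and KRT7 the highest (62.5%). The 4 inner root sheath genes KRT25 to KRT28, which stand next to each other, had a median of 48.3% in exons and 37.7% in introns, the lowest medians of any class.

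Genes whose products bind or anchor keratin filaments were listed as well. Among 21 such genes, which include the desmosomal genes DSP, JUP and PKP1, 1 had a joined model (DST, 4.76%), against 12.4% of all multi-exon gene names. Of 15 other intermediate filament genes, 1 had one (LMNA, 6.67%). Among names with at least 2 reference transcripts these were 1 of 10 (10%) and 1 of 6 (16.7%), against 27.5% of all such names. Of 94 KRTAP names, 91 had a single exon, so that a joined model, which needs shared junctions, was possible for few of them.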
